A study of Mus musculus with 22 samples.

Results

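Ebf1, Lhx1 and Tfap2b encode transcription factors of cerebellar neuron lineages, and their transcripts were followed in Purkinje cells (PCs) with and without Tsc1. They are 3 of the 66494 loci in each of the deposited tables and were taken by locus identifier, XLOC_007936 (Ebf1), XLOC_010147 (Lhx1) and XLOC_000127 (Tfap2b). A locus could be paired with a gene name only through gene lists that the study had selected on these libraries, Ebf1 from its list of changed transcripts in sorted PCs and all 3 from its list of changed translation efficiency. The genotype differences of the named genes are therefore not independent evidence of their direction.

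The series holds 22 RNA-seq libraries from mice. Total RNA came from GFP-positive PCs sorted from dissociated cerebellum in 10 libraries, 5 from Tsc1 fl/fl L7Cre mutants with L7GFP (numbers 61, 74, 103, 167 and 191) and 5 from Tsc1 +/+ controls (45, 48, 144a, 144b and 176). The other 12 libraries were made by translating ribosome affinity purification (TRAP), which pulls down RNA bound to an EGFP-tagged RPL10A ribosomal protein, with 3 control and 3 mutant libraries without rapamycin and 3 of each genotype with rapamycin, an inhibitor of mTOR. In the mutants Cre removes Tsc1 exons 17 and 18, and Tsc1 restrains mTOR. Cre is driven by the L7 (Pcp2) promoter, as is the GFP used for sorting, while the tagged ribosomal protein is switched on by the same Cre. The methods of the study give L7Cre and L7GFP for sorted animals of both genotypes, while its results give L7GFP without Cre for the controls. The methods give an age of P21 or P42 for sorting, and no label gives the age of a library or the dose or schedule of rapamycin. Tsc1 itself was not analysed here, so the genotype labels were not checked on it.

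Purkinje cells and the inhibitory interneurons of the cerebellum arise from progenitors of the ventricular zone, and both use GABA. Ebf1 belongs to the early B-cell factor family of helix-loop-helix proteins, whose members take part in the development of PCs and mark subsets of them. Lhx1 is a LIM-homeodomain protein that acts together with its close relative Lhx5 in PC differentiation. Tfap2b is an AP-2 protein of the GABAergic lineages of the cerebellum. All of them bind DNA as proteins, and the libraries here measure only their RNA.

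In GRCm38, Ebf1 occupies chromosome 11 from 44617317 to 45008091 (plus strand), an interval that also holds the antisense gene Gm12158. Lhx1 lies on the same chromosome from 84518284 to 84525535 on the minus strand, and Tfap2b lies on chromosome 1 from 19208914 to 19238576 on the plus strand. The counting is not stated to use strand, so reads from Ebf1 and from Gm12158 cannot be told apart. The study's assembled transcripts of Ebf1 and Lhx1 share splice junctions with the reference transcript without matching it in full, while that of Tfap2b matches it.

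The 250 bases before a RefSeq start (GRCm38.p6) are shown for each gene, as annotated promoter sequence of the measured genes. Where transcription began in these cells was not measured. Capitals mark a CCAAT box (CCAAT) or a cAMP response element core (TGACGT) on either strand. The Ebf1 window is chr11:44619978-44620227 (plus strand, before an internal start 2911 bases into the gene), the Lhx1 window is chr11:84525535-84525784 (minus strand, before the gene's own first exon), and the Tfap2b window is chr1:19211804-19212053 (plus strand, before a start 3140 bases into the gene).
Ebf1: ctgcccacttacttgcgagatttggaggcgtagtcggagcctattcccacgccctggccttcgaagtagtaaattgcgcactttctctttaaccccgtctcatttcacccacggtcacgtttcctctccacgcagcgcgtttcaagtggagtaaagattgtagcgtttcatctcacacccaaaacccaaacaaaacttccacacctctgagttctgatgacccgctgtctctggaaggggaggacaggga
Lhx1: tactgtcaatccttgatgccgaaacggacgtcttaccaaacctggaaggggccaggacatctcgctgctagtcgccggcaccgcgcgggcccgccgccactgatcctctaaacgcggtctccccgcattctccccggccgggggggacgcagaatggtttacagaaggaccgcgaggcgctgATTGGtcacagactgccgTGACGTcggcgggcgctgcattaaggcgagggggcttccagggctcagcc
Tfap2b: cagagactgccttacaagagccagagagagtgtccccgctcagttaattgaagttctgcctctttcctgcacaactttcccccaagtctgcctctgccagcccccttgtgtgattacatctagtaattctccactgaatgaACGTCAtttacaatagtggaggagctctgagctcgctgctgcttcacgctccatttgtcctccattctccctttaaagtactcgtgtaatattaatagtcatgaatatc

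The 3 windows differed in base composition. Lhx1 had 64.8% G and C with 26 CpG dinucleotides (above 90.4% of 32817 RefSeq windows of the same length), Ebf1 had 52% with 14, and Tfap2b had 46.4% with 5, where the median window had 52.4% and 6. RefSeq gives a second Ebf1 start 783 bases into the gene, whose window lies in an annotated 5′ untranslated exon, is not printed here, and had 40% with 9 CpG and none of the motifs searched. The Lhx1 window held a CCAAT box 68 bases and a cAMP response element core 50 bases before its start, and the Tfap2b window held the cAMP response element core 109 bases before its start. A CCAAT box occurred in 33.8% of all windows and the cAMP response element core in 6.46%. Motifs for the proteins that the genes themselves encode were also searched on both strands. The inverted-repeat EBF motif (in 0.78% of all windows), the AP-2 motif GCCNNNGGC (13.7%) and the LIM-homeodomain motif TAATTA (4.85%) were not found in these letters. None of these motifs overlapped another in the 3 windows.

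The deposited values, here called normalised signal, are fragment counts that were estimated per locus and scaled library by library, with no correction for transcript length. The sorted libraries held 43.3 to 86.3 M fragments and the TRAP libraries 2.47 to 6.38 M. Sorted libraries came from 3 submissions named in the labels: mutants 61, 74 and 103 from MS2723, controls 45, 48 and 144b from MS2872, and the remaining libraries of both genotypes from MS3005. Controls 144a and 144b carry one animal number. All 7 PC markers were detected in every library, and their summed signal was 348433 to 670842 in sorted controls and 18261 to 382509 in sorted mutants, with the lowest sums in the 3 mutants of MS2723. The signal of 3 astroglia markers divided by that sum was 0.173 to 0.658 in sorted controls and 0.582 to 16.6 in sorted mutants. In TRAP without rapamycin it was 0.00447 to 0.0142 in controls and 0.0323 to 0.0459 in mutants, and with rapamycin it was 0.00529 to 0.0128 and 0.00489 to 0.0137. The study's thresholds were a fold over 2 with p below 0.01 before adjustment. The astroglia markers differed among themselves. In sorted mutants Tnc passed the thresholds as higher (log2 difference 1.35, beside 1.47% of all loci in either direction) while Gfap (-0.30) and Apoe (0.24) did not. In TRAP mutants without rapamycin Gfap (2.71) and Apoe (1.92) passed as higher, beside 1.96% of all loci in either direction. Tnc was lower there (-2.27), which is a description, since it passed a filter on low values only through the controls.

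In sorted control PCs, Ebf1 was the most abundant of the 3 RNAs. Per kilobase of the reference transcript, the mean normalised signal in the 5 controls was 659 for Ebf1 (range 529 to 926), 218 for Lhx1 (72.8 to 427) and 54.3 for Tfap2b (18.7 to 111). Ebf1 was above Lhx1 in each of the 5 control libraries. The ranges of Lhx1 and Tfap2b overlapped, so their order is given as a level only.

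Ebf1 was lower in sorted Tsc1 mutant PCs, by 3.13-fold on average. Its normalised signal in controls was 3846 (144a), 3596 (144b), 3559 (176), 5540 (45) and 3164 (48). In mutants it was 2361 (167), 1814 (191), 1362 (74), 1104 (103) and 441 (61). Every mutant library was below every control library, as were 1.39% of the 16455 loci tested. Controls averaged 11.92 ± 0.31 (SD, n = 5) on the log2(signal + 1) scale and mutants 10.27 ± 0.93 (SD, n = 5). Ebf1 passed the thresholds, with a log2 difference of -1.65 (95% confidence interval -2.56 to -0.74). Its Benjamini-Hochberg adjusted p from limma over all loci was 0.394, the smallest value that any locus reached. Of all loci tested, 1.47% passed the thresholds in either direction.

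The mutant libraries with the lowest Ebf1 were those of submission MS2723, which were also those with the lowest PC marker sums. Within submission MS3005, the one submission with both genotypes, Ebf1 was 3846 and 3559 in controls and 2361 and 1814 in mutants. There the log2 difference was -0.84 and no longer passed the thresholds (limma adjusted p = 0.9999). Without the 3 mutants of MS2723, an alternative chosen after seeing the data, it was -0.90 (limma adjusted p = 0.999). Relative to 1000 units of PC marker signal in the same library, Ebf1 was 6.18 to 10.2 in controls and 5.14 to 60.5 in mutants, and the groups overlapped. In bulk libraries fewer cells of a type and less RNA per cell cannot be told apart. The part of cell composition in the Ebf1 difference was not tested.

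Lhx1 varied more within each genotype than Ebf1 did. In sorted controls its normalised signal was 621 (144a), 280 (144b), 527 (176), 1642 (45) and 1124 (48), and in mutants it was 505 (167), 476 (191), 478 (74), 303 (61) and 69.3 (103). The groups overlapped, with control 144b below 4 of the 5 mutants. Controls averaged 9.46 ± 0.99 (SD, n = 5) on the log2(signal + 1) scale and mutants 8.23 ± 1.21 (SD, n = 5). Lhx1 differed by -1.22 log2 units (95% confidence interval -2.65 to 0.20, limma adjusted p = 0.474) and did not pass the thresholds. Mutant 103 weighed on it, because without that library it was -0.70. Within MS3005 the log2 difference was -0.22, from 621 and 527 in controls and 505 and 476 in mutants.

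Libraries 144a and 144b, which share an animal number, differed in Lhx1 although both are controls. Lhx1 was 2.22-fold higher in 144a than in 144b, a larger difference than that of 94.0% of loci between these libraries. The 95% Poisson intervals of their normalised signals, which cover counting error only, were 579 to 666 and 249 to 313. Tfap2b differed by 1.56-fold in the opposite direction and Ebf1 by 1.07-fold.

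Tfap2b was the lowest of the 3 in the sorted libraries and split the mutants. Its normalised signal in controls was 109 (144a), 171 (144b), 140 (176), 523 (45) and 649 (48). In mutants it was 173 (167), 108 (74), 68.1 (61) and 1.40 (191), and it was listed at 0 in mutant 103. Mutant 167 lay above 3 of the 5 controls, while mutants 191 and 103 lay far below every other sorted library. The PC marker sum was 352951 in 191 and 18261 in 103. The part of cell composition in these Tfap2b values was not tested. Tfap2b passed the filter on low values, a mean log2(signal + 1) of 5, only through the controls, so its log2 difference of -3.63 is a description and no test of it is given. The size depends on the pseudocount because of the value of 0, at -2.50 with a pseudocount of 10 and -4.43 with 0.1. It also depends on single libraries, at -2.55 without mutant 103, -2.86 without mutant 191 and -4.41 without mutant 167. Controls 45 and 48 held the highest Lhx1 and the highest Tfap2b of the 10 sorted libraries.

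**Figure D1:**
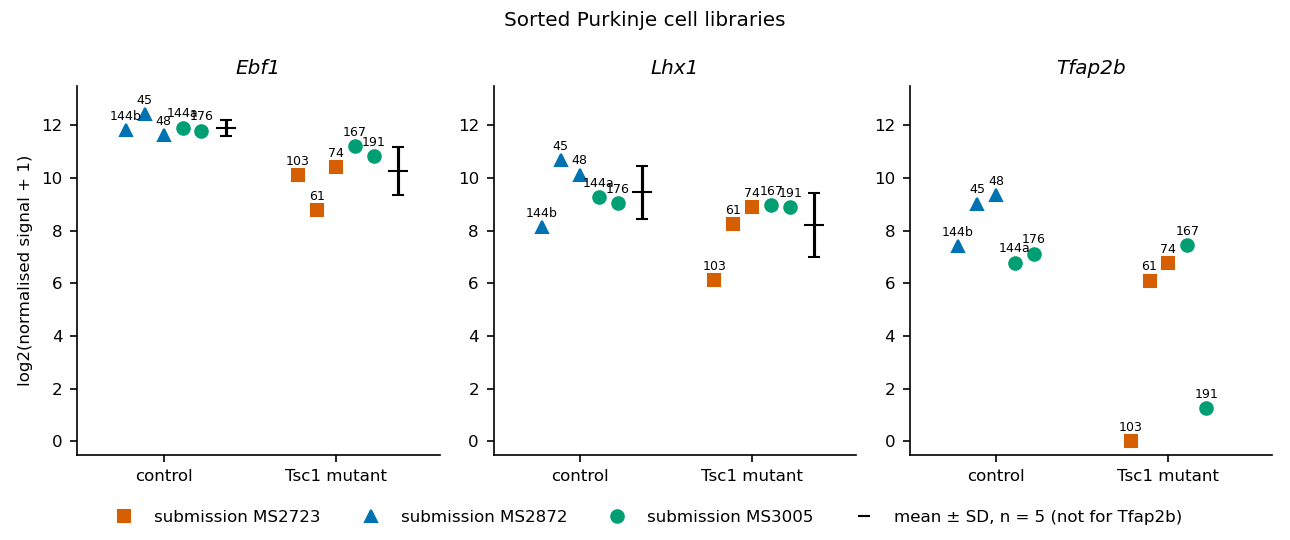
Normalised signal of Ebf1, Lhx1 and Tfap2b in the 10 sorted libraries on the log2(signal + 1) scale, with the library number beside each point, marker shape and colour for submission, and bars for the mean and SD of 5 libraries (not drawn for Tfap2b, which is listed at 0 in a library). The Ebf1 mutants lie below all controls, the Lhx1 groups overlap, and Tfap2b falls to 1.26 in mutant 191 and 0 in mutant 103.

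**Figure D2:**
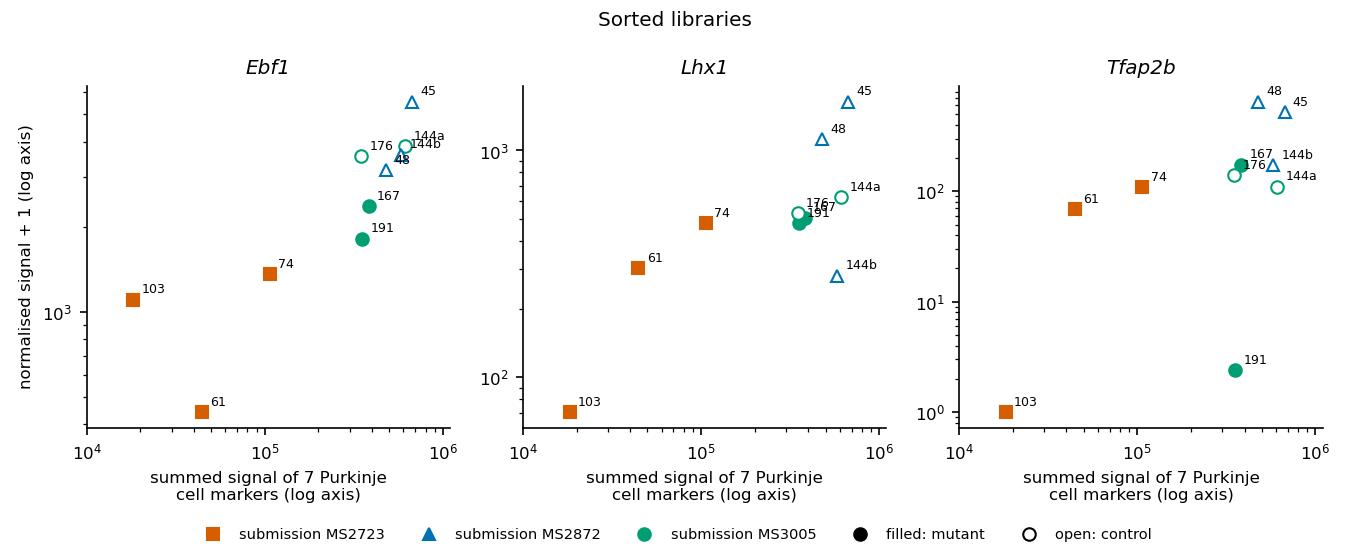
Normalised signal + 1 of each gene (log axis) against the summed normalised signal of 7 PC markers (log axis) in the 10 sorted libraries, with filled symbols for mutants, open symbols for controls and shape for submission. Mutants 61, 74 and 103 lie at the left, with marker sums of 18261 to 106550, and mutants 167 and 191 lie beside control 176.

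Ribosome-bound RNA of the 3 genes was measured at far lower depth. In TRAP without rapamycin, Ebf1 was 18.7, 43.9 and 36.7 in controls 1, 2 and 3 and 31.4, 25.6 and 38.8 in mutants 1, 2 and 3. These values rest on 16 to 128 fragments, and the groups overlapped. Controls averaged 5.01 ± 0.63 (SD, n = 3) on the log2(signal + 1) scale and mutants 5.02 ± 0.29 (SD, n = 3). Ebf1 differed by 0.01 log2 units (95% confidence interval -0.995 to 1.02, limma adjusted p = 0.997), and the interval reaches to about 2-fold either way. With equal library totals the log2 difference of Ebf1 was 0.41, beside a median of 0.47 over all loci.

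Lhx1 in TRAP was 43.4, 63.4 and 38.4 in the controls and 66.7, 63.3 and 46.7 in the mutants. Controls averaged 5.59 ± 0.37 (SD, n = 3) on the log2(signal + 1) scale and mutants 5.89 ± 0.27 (SD, n = 3), and the groups overlapped. The log2 difference was 0.29 (95% confidence interval -0.57 to 1.16, limma adjusted p = 0.846). Tfap2b was near the limit of detection, at 0, 9.41 and 3.34 in the controls and 5.37, 7.53 and 9.10 in the mutants. It passed the filter on low values through the mutant libraries, since the mean log2(signal + 1) was 1.83 in controls and the filter was 2. Its log2 difference of 1.20 is therefore a description. Neither Ebf1 nor Lhx1 passed the thresholds, against 1.96% of 9658 loci.

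**Figure D3:**
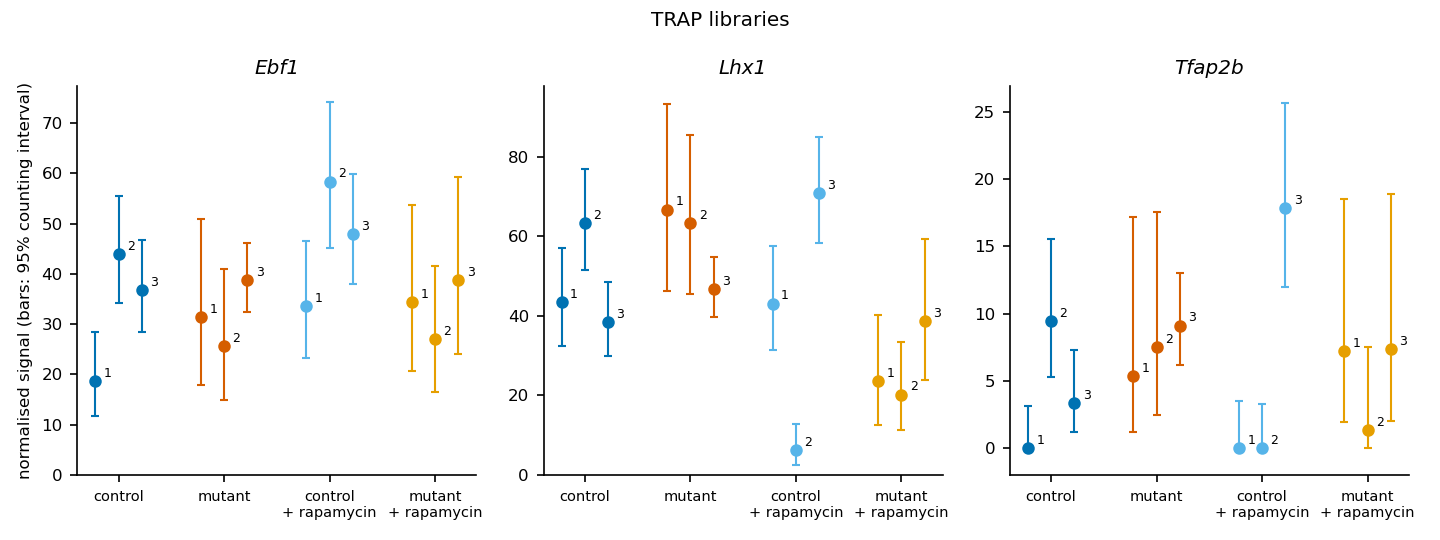
Normalised signal of Ebf1, Lhx1 and Tfap2b in the 12 TRAP libraries (linear axes that differ between panels), with the replicate number beside each point and bars for the 95% Poisson interval of the fragments behind it, which covers counting error only. Lhx1 in mutants with rapamycin lies at 20.2 to 38.8, below the 46.7 to 66.7 of mutants without it, and control 2 with rapamycin is at 6.19.

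Ribosome-bound Lhx1 was lower in every mutant library with rapamycin than in any mutant library without it, and the difference missed the thresholds. With rapamycin, Lhx1 was 23.5, 20.2 and 38.8 in mutants 1, 2 and 3, from 13, 15 and 21 fragments. All of these were below the 46.7 to 66.7 of the mutants without rapamycin, as were the values of 9.38% of 9664 loci. It amounted to -1.11 log2 units (95% confidence interval -1.998 to -0.22, limma adjusted p = 0.598). Of all loci tested, 1.75% passed the thresholds. Lhx1 passed them with an intensity trend in the fit, with a stricter filter and with limma-voom on estimated fragments, where the log2 difference was -1.11, -1.11 and -1.04. It missed them with all 4 TRAP groups in one fit (-1.11, limma adjusted p = 0.99999), with the replicate number as a block (-1.11, limma adjusted p = 0.730) and with equal library totals (-1.88 beside a median of -0.80 over all loci, limma adjusted p = 0.875). Between the same libraries the astroglia markers Gfap (-2.39) and Apoe (-2.06) passed the thresholds as lower with rapamycin, and the summed signal of the 3 astroglia markers was 54.3 to 155 with rapamycin and 358 to 488 without. The part of astroglial RNA in the Lhx1 difference was not tested.

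In controls, Lhx1 with rapamycin was 43.1, 6.19 and 70.7 in libraries 1, 2 and 3, and these lay on both sides of the controls without it. Their log2 difference from the untreated controls was -0.77 (95% confidence interval -3.01 to 1.48, limma adjusted p = 0.900). It was 0.22 without control 2 with rapamycin, so the sign rests on that library. Lhx5, the close relative of Lhx1, was also low in this library, at 0.884 against 20.1 and 40.6 in the other 2. Rora and Foxp4, also factors of the PC lineage, were highest in it, as was Ebf1. Rora was 250 against 108 and 218, Foxp4 was 148 against 68.0 and 78.7, and Ebf1 was 58.3 against 33.5 and 48.0. The rapamycin comparisons share the untreated libraries with the genotype comparison. The interaction of genotype and rapamycin was -0.34 for Lhx1 (95% confidence interval -2.63 to 1.96, limma adjusted p = 0.968, with 1.91% of 9174 loci past the thresholds), so the response to rapamycin was not shown to differ between the genotypes.

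The TRAP values of Ebf1 overlapped with and without rapamycin in both genotypes. With rapamycin Ebf1 was 33.5, 58.3 and 48.0 in controls and 34.4, 27.0 and 38.8 in mutants. Its log2 difference was 0.53 in controls (95% confidence interval -0.91 to 1.97, limma adjusted p = 0.893), where the median of all loci was -0.31 and 1.05% of 8682 loci passed the thresholds. In mutants it was 0.07 (95% confidence interval -0.73 to 0.86, limma adjusted p = 0.965). Between mutants and controls under rapamycin it was -0.45 (95% confidence interval -1.72 to 0.82, limma adjusted p = 0.887), where 1.23% of 8728 loci passed the thresholds and their median was 0.32. Lhx1 differed there by -0.05 (95% confidence interval -2.32 to 2.23).

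Tfap2b with rapamycin was listed at 0 in controls 1 and 2 and was 17.8 in control 3, from 29 fragments. In the mutants it was 7.24, 1.35 and 7.38, from 4, 1 and 4 fragments. The log2 difference in mutants was -0.59 (95% confidence interval -1.93 to 0.76, limma adjusted p = 0.764). In both 2-group comparisons that hold controls with rapamycin, Tfap2b was below the filter and was not tested.

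The genotype difference in ribosome-bound RNA relative to that in total RNA, which the study calls ΔTE, was positive for Ebf1 and Lhx1, with the interval of Lhx1 including 0. The ΔTE of Ebf1 was 1.66 (95% confidence interval 0.35 to 2.98, limma adjusted p = 0.241) and combined a TRAP difference of 0.01 with a sorted difference of -1.65. For Lhx1 it was 1.52 (95% confidence interval -0.34 to 3.37, limma adjusted p = 0.433). For Tfap2b the value of 4.83 is a description, since the gene passed the sorted filter through the controls and the TRAP filter through the mutants, and both favour a positive value. The median ΔTE of 9374 loci was 0.19. Neither Ebf1 nor Lhx1 passed the thresholds, against 4.38% of loci.

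The positive ΔTE of Ebf1 and Lhx1 came mostly from the lower signal in sorted mutants and not from a higher one in TRAP. The study summarised ΔTE by a Z-score over repeated recalculations with values left out. Here every combination that leaves out 1 library of each of the 4 groups was used, which is not the study's own set of draws. Over these 225 combinations the Z-score was 4.65 for Ebf1 and 3.82 for Lhx1. No Z-score is given for Tfap2b, since both filters favoured a positive value. The SD of these recalculations, which share most of their libraries, was 0.36 for Ebf1, below the limma standard error of 0.62. Within MS3005 for the sorted libraries, the ΔTE was 0.85 for Ebf1, 0.52 for Lhx1 and 3.81 for Tfap2b. As these genes were named through the study's ΔTE list, their positive values and Z-scores are a description.

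**Figure D4:**
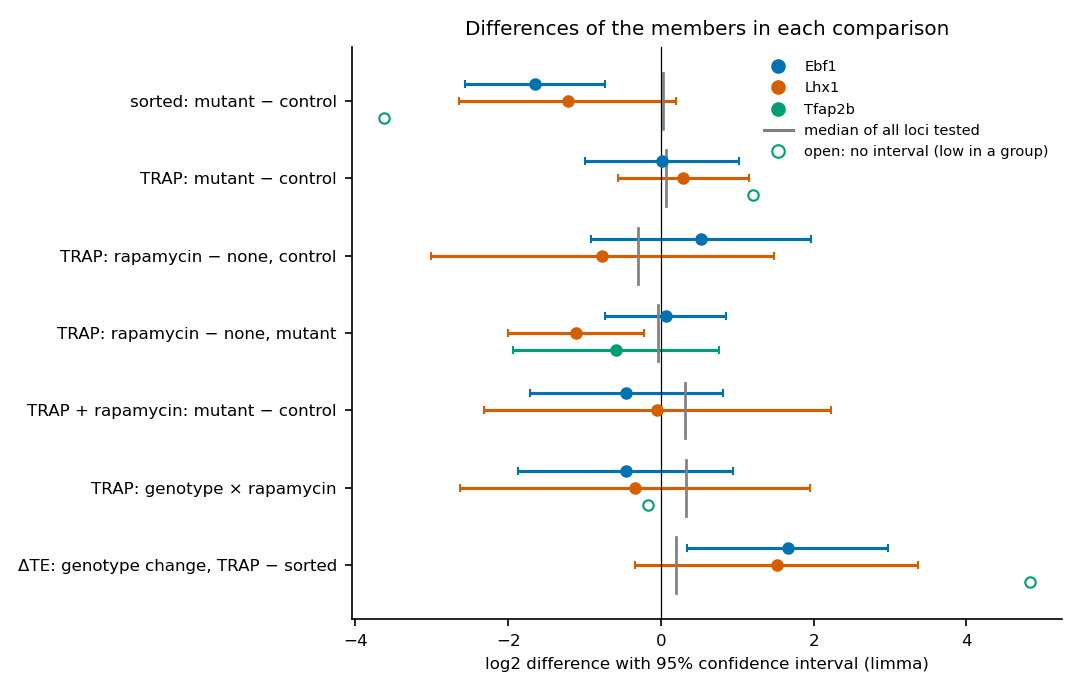
Log2 differences of Ebf1, Lhx1 and Tfap2b in 7 comparisons, with 95% confidence intervals from limma, a grey line for the median of all loci tested, and open symbols without an interval for Tfap2b where it was below the filter in a group. The sorted differences are -1.65, -1.22 and -3.63, the TRAP differences without rapamycin are 0.01, 0.29 and 1.20, and Tfap2b has no point where its mean over both groups was below the filter.

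In the controls, the order of Ebf1 and Lhx1 was reversed between total and ribosome-bound RNA. Per kilobase of the reference transcript, the mean normalised signal in TRAP controls was 12.6 for Lhx1 and 5.54 for Ebf1, against 218 and 659 in sorted controls. The ratio of Lhx1 to Ebf1, taken within a library so that no scaling between libraries enters, was 0.251 (144a), 0.121 (144b), 0.230 (176), 0.461 (45) and 0.553 (48) in sorted controls. In TRAP controls it was 3.61, 2.24 and 1.63. All TRAP controls lay above all sorted controls, by 8.37-fold on average (two-sided exact permutation p = 0.0357, the smallest that 5 against 3 libraries allow, and 0.0714 adjusted over 4 such comparisons). With 144a and 144b averaged as 1 animal, an alternative chosen after seeing the data, the difference was 7.42-fold (two-sided exact permutation p = 0.0571, the smallest that 4 against 3 allow, and 0.114 adjusted).

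In the mutants the ratio was also higher in TRAP than in sorted libraries, but Lhx1 was already above Ebf1 in sorted mutant 61. The ratio was 0.0976 (103), 0.332 (167), 0.408 (191), 1.07 (61) and 0.546 (74) in sorted mutants and 3.30, 3.84 and 1.87 in TRAP mutants. The groups did not overlap and differed by 7.60-fold (two-sided exact permutation p = 0.0357, 0.0714 adjusted). The genotypes differed in this ratio by 1.34-fold among sorted libraries (two-sided exact permutation p = 0.563) and by 1.22-fold in TRAP (p = 0.6 by the same exact permutation test, where 0.1 is the smallest possible). With rapamycin the ratio was 2.00, 0.165 and 2.29 in controls and 1.06, 1.17 and 1.56 in mutants. The tables differ in preparation, depth, transgene and animals, and these cannot be told apart from ribosome binding.

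Relative to the other loci, Lhx1 stood high in TRAP. Within the controls, its TRAP value minus its sorted value was 3.17 log2 units above the median of 9374 loci, at the 96.2 percentile. Ebf1 was 0.12 units above the median (53.5 percentile) and Tfap2b 0.92 units (75.2 percentile). Within the mutants the figures were 4.52 for Lhx1 (98.0 percentile), 1.62 for Ebf1 (84.4 percentile) and 5.58 for Tfap2b (99.1 percentile). Tfap2b is among these loci only through the sorted controls and the TRAP mutants, so its figures in both genotypes are a description. Its mutant figure rests on sorted values that include 0 (103) and 1.40 (191) and on 3 to 30 fragments in a TRAP library.

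**Figure D5:**
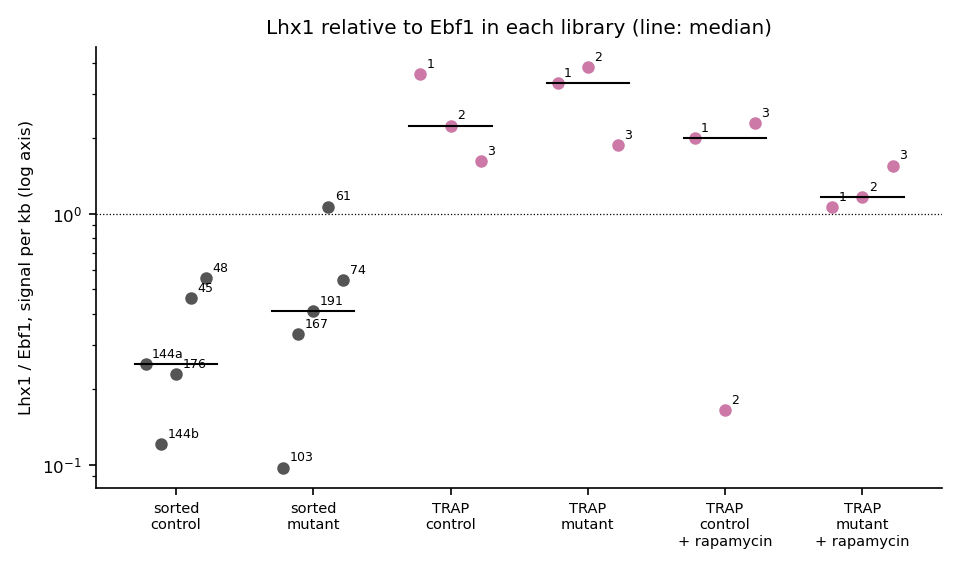
Ratio of Lhx1 to Ebf1 normalised signal per kilobase (log axis) in each of the 22 libraries by group, with the library or replicate number beside each point and a line at the group's median. The sorted libraries lie between 0.0976 and 1.07, and the TRAP libraries lie between 1.06 and 3.84 apart from control 2 with rapamycin at 0.165.

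Other transcription factors of the PC lineage that could be paired with a locus were Lhx5, Rora, a nuclear receptor needed for PC maturation, and Foxp4, a forkhead factor of PCs. In sorted PCs all 3 were lower in mutants on average, with a median log2 difference of -1.53 beside 0.03 for all loci. Foxp4 (-1.53) passed the thresholds, as did 1.47% of all loci. Within MS3005, control 144a lay above mutants 167 and 191 for each gene, and control 176 lay below them. Lhx5 was 299.7 in control 176 against 304 and 350 in mutants 167 and 191. Rora was 12075 against 12776 and 12088, and Foxp4 was 620 against 668 and 763. The part of cell composition in these differences was not tested. Lhx5 was 299.7 to 771 in controls and 12.2 to 350.4 in mutants, a log2 difference of -2.40 (95% confidence interval -4.28 to -0.51). In TRAP without rapamycin none of the 3 passed the thresholds (1.96% of all loci), and their median difference was 0.40. In ΔTE Foxp4 (1.93) and Rora (1.33) passed the thresholds, beside 4.38% of all loci, and Lhx5 (2.35) did not. These genes too were named through the study's lists.

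Of 14 further neural patterning and neuronal lineage factors, 11 were tested in sorted PCs, with 6 lower and 5 higher in mutants and a median log2 difference of -0.45. Lbx1, a homeobox factor of spinal interneurons, passed the thresholds as lower (-1.93), and Sox2, a factor of neural progenitors and glia, as higher (1.01), beside 1.47% of all loci, and no locus in that comparison reached a limma adjusted p below 0.394. In TRAP 5 of the 14 were tested and none passed the thresholds.

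Over all 22 libraries, the named genes whose library-to-library pattern was most like that of each of the 3 genes were different. Likeness was the root mean square difference of log2 values centred within each table, over 897 named loci. For Ebf1 they were Rbfox2 (0.48), Inpp4a (0.49) and Tmem200b (0.50), where the median locus was at 0.99. For Lhx1 they were Mgst3 (0.56), Pak1 (0.59) and Nefm (0.64), with the median at 1.13. For Tfap2b the nearest were Rapgef4 (1.58), Gad1 (1.59), which encodes a GABA-synthesising enzyme, and Cpne9 (1.65), with the median at 2.19. Lhx1 ranked 492 of 897 in likeness to Ebf1 and 7 of 897 in likeness to Tfap2b. The reverse did not hold, because Tfap2b ranked 853 of 897 in likeness to Lhx1 (1.71, with the median at 1.13). Over the sorted or the TRAP libraries alone, Lhx1 ranked 40 and 46 in likeness to Tfap2b.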

How the data were processed

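According to the methods, 75-base paired-end reads were trimmed, mapped with STAR 2.7.0f to GRCm38 and quantified with Cufflinks 2.2.1 on a transcriptome assembled from the sorted libraries. The authors deposited a table for each assay, in which each value is a signal: the estimated fragments of a locus after scaling by a size factor of its library. Fragments were recovered from the smallest step between low values of a library; because not all values were whole multiples (tolerance 0.02 fragments), no count test was the main test.

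Values were transformed to log2(value + 1). Loci whose mean reached 5 in the sorted table or 2 in the TRAP table were fitted over the libraries compared in R 4.3.3, with lmFit and eBayes of limma 3.58.1. Calls followed the study (p below 0.01 before adjustment, fold over 2), with the Benjamini-Hochberg adjusted p over all loci beside them. Fold changes are on the log2(value + 1) scale, which understates changes of low values. For ΔTE and the interaction a single model covered all groups involved. Sorted libraries carry animal numbers and TRAP libraries only replicate numbers, so p-values measure the spread between libraries, which may be technical. The scripts were tested on simulated data.

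The genes and lists were chosen with earlier results of these data known. The named genes are the 3 members, the listed transcription factors and the 3 loci most like each member. Marker lists were 7 PC (Calb1, Pcp2, Car8, Itpr1, Gng13, Rgs8, Homer3) and 3 astroglia genes (Gfap, Apoe, Tnc). GABAergic, microglia, oligodendrocyte and vascular markers were summed as well. Some PC markers of the original list are not reported here. Coordinates and lengths are of GENCODE M21 (GRCm38), and promoters are RefSeq. Settings varied were the scaling, the pseudocount (10 or 0.1), the filter (none, or 7 and 4), an eBayes trend, limma-voom, submission as a term or MS3005 alone, 144a and 144b averaged, array weights, a replicate block, all TRAP groups in one fit, and each library left out.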

Additional observations from a re-analysis of the deposited data

Results flagged for a closer look

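Lhx1 in sorted mutant 103 stood apart from the other 4 mutants. Its gap to the next library, on the log2(value + 1) scale, was 0.742 of the whole range of the group, above the critical value of 0.71 for 5 libraries. Among 6 gene and group pairs examined this was the one past its critical value, and chance alone passes about 1 in 20 groups. Mutant 103 also had the lowest PC marker sum of the sorted libraries and was listed at 0 for Tfap2b. The part of that in the Lhx1 value was not tested.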

How the results depend on the processing

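Of 386 alternative values for 19 limma results, 358 kept their direction and their side of the thresholds, and none of the 19 that turned sign passed the thresholds. The lower Ebf1 in sorted mutants missed the thresholds with submission as a term (-0.84), with MS3005 alone (-0.84) and without the 3 MS2723 mutants (-0.90), and kept its call without any single library (-1.88 to -1.28). Lhx1 under rapamycin in mutants passed with a stricter filter (-1.11), an eBayes trend (-1.11), limma-voom (-1.04) and without mutant 3 with rapamycin (-1.38 to -0.92 with any single library left out). The ΔTE of Ebf1 passed without sorted mutant 167 (1.29 to 1.90 with a library left out). That of Tfap2b was 5.19 with equal library totals. It is a description only, since both filters favoured a positive value, and no call is drawn from it. The ratio of Lhx1 to Ebf1 between TRAP and sorted controls missed 0.05 by an exact permutation test with 144a and 144b averaged (2.89 log2 units).

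Signs turned for Ebf1 in TRAP with a pseudocount of 10 (-0.0028) and without 1 library (-0.34 to 0.25), and for Ebf1 under rapamycin in mutants with equal totals (-0.71), equal totals without the 10 highest loci (-0.46), limma-voom (-0.0555) and 1 library left out (-0.0792 to 0.212). Equal totals moved the median of all loci there to -0.80. Mutant 3 without rapamycin had a total signal of 0.861 M, against 4.47 to 5.84 M in the other TRAP mutants, so that setting raised it most. Signs also turned with 1 library left out for Lhx1 under rapamycin in controls (-1.44 to 0.22), Lhx1 between genotypes under rapamycin (-1.03 to 0.62, and 0.0579 after quantile normalization), Tfap2b under rapamycin in mutants (-0.897 to 0.0216), and the interactions of Lhx1 (-1.33 to 0.33) and Tfap2b (-0.94 to 0.75, and 0.64 with a pseudocount of 0.1). The cause was not tested. A stricter filter removed Tfap2b.

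TRAP libraries with the same replicate number did not deviate together (0 of 18 pairs with a correlation above 0.1, range -0.065 to 0.074). With the replicate block no call of the 3 genes changed. The value for Lhx1 under rapamycin in mutants was -1.11 in that fit, and calls over all loci went from 169 to 100.

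Calls over all loci ranged with the setting, from 33 to 702 for the sorted comparison (main 242), from 65 to 441 for TRAP without rapamycin (189), from 24 to 509 for rapamycin in controls (91) and from 59 to 410 in mutants (169). They ranged from 32 to 535 between genotypes under rapamycin (107), from 28 to 529 for the interaction (175) and from 63 to 744 for ΔTE (411). Averaging 144a and 144b gave 166 sorted calls. TRAP depth limits Tfap2b most, with 0 to 30 fragments a library.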

Other observations

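The other marker lists had the following values beside the 3 genes. The 3 GABAergic markers (Gad1, Gad2 and Slc32a1) were all lower in sorted mutants, 2 of them past the thresholds (1.47% of all loci), with summed signals of 176 to 4059 in mutants and 4767 to 10146 in controls, and in TRAP none of the 2 tested passed. The 7 microglia markers overlapped between the sorted genotypes, at 15464 to 35553 in mutants and 12868 to 54411 in controls, and none passed the thresholds. Opalin, the oligodendrocyte marker, was 977 to 7427 in sorted mutants and 1920 to 6182 in sorted controls. The 4 vascular markers summed to 2420 to 25931 in mutants and 7385 to 21998 in controls, with 1 past the thresholds as lower (1.47% of all loci). In TRAP without rapamycin the microglia markers summed to 29.7 to 58.9 in mutants and to at most 6.90 in controls.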
